A study of Mus musculus with 8 samples.

Results

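Axon guidance ligands and receptors were followed in SThdh111/111 and SThdh7/7 cells by taking every probe set that the array annotation assigns to exactly 1 of 51 genes of the semaphorin, neuropilin, plexin, ephrin, Eph, netrin, netrin receptor, Slit and Robo families. This gave 123 of the 45037 probe sets besides controls, for 50 genes, and no probe set was named for Ephb2. Total RNA of 4 SThdh111/111 samples and 4 SThdh7/7 samples, each hybridised to 1 Affymetrix whole-genome mouse array, gave the values. Both are lines of conditionally immortalised striatal cells from mouse embryos, and the number in each name is the length of the polyglutamine stretch encoded by both Htt alleles, the longer one modelling Huntington's disease. Each genotype is represented by a single line, so the allele and any other difference between the lines cannot be told apart. No treatment is given, and separate cultures are not mentioned for the samples, so p-values measure the spread between these samples, which may be technical.

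Guidance cues steer growth cones, and in the developing striatum they sort the fibres that enter and leave it. Secreted class 3 semaphorins act through neuropilins paired with plexins, ephrins on one cell act on Eph receptor kinases of its neighbour, netrins attract through Dcc and repel in the presence of Unc5 receptors, and Slits repel through Robo receptors. The same molecules direct cell migration, vessel growth and tissue boundaries outside neurons. The study, by its title, is about genes downregulated in Huntington's disease models, and the comparison asks which of these cues and receptors were lower, and which higher, in SThdh111/111.

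Values are log2 of the deposited intensity, and the lines were compared with limma. The brightest kept probe set stands for a gene, "rose" and "fell" stand for an adjusted p under 0.05 over all 41409 kept probe sets, and differences are SThdh111/111 minus SThdh7/7. A background floor was set at a log2 intensity of 7.02, from bacterial control probe sets. Values below it have no order, and a gene below it on all arrays of 1 line gets a bound against the floor ("at least N-fold") in place of a fold. SThdh7/7 samples 1 and 2 stood apart, with median intensities of 173.9 and 174.0 against 136.2 to 147.0 on the other 6 arrays, and leaving both out is reported where it changes a call. The 95th percentile of the bacterial controls was 72.0 to 77.5 on the SThdh111/111 arrays and 98.7 to 130.0 on the SThdh7/7 arrays, and its part in the differences of dim genes was not tested. Against the labelled striatal origin, the 8 measured markers of striatal projection neurons were mixed: Foxp1 was above the floor on all 8 arrays and Penk on all SThdh111/111 arrays and 1 SThdh7/7 array, while Ppp1r1b, Drd1 and Pdyn were below it on all 8. Of 9 measured neuron markers Map2 was above the floor on all 8 arrays, and Snap25 and Tubb3 were below it on all 8. Of 9 measured neural progenitor markers Nes, Sox2 and Vim were above it on all 8, and Fabp7, Gsx2 and Hes5 were below it on all 8.

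Of the 50 measured guidance genes 10 rose and 11 fell in SThdh111/111. Among those that rose were 5 class 3 semaphorins and Slit2. Ntn1, Ntn4, ephrin-B2, plexin D1 and Unc5b were among those that fell. The share called was 42.0%, beside 29.0% of all 17389 genes, of which 13.1% rose and 15.9% fell. These genes were chosen with earlier results of these data known, and of 28 other genes of guidance families 21.4% were called. All 8 arrays were above the floor for 33 of the 50, and 16 of those 33 (48.5%) were called, beside 41.9% of the 9860 genes measured as brightly. Over the 50 genes the median difference was -0.04, with a median absolute difference of 0.64, and for all genes these were -0.09 and 0.38. The 8 arrays separated without overlap for 13 genes with SThdh111/111 above and 14 with it below, and 31.6% of all genes separated in either direction. Among the 33 genes above the floor on all 8 arrays, 8 separated with SThdh111/111 above and 10 with it below. Of the 9860 genes measured as brightly, 2023 and 2371 did so. Among ligands 8 of 27 rose and 6 fell, and among receptors 2 of 23 rose and 5 fell. Sema3d, Epha3 and Robo2 lay below the floor on all 8 arrays, so no level can be given for them.

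**Figure D1:**
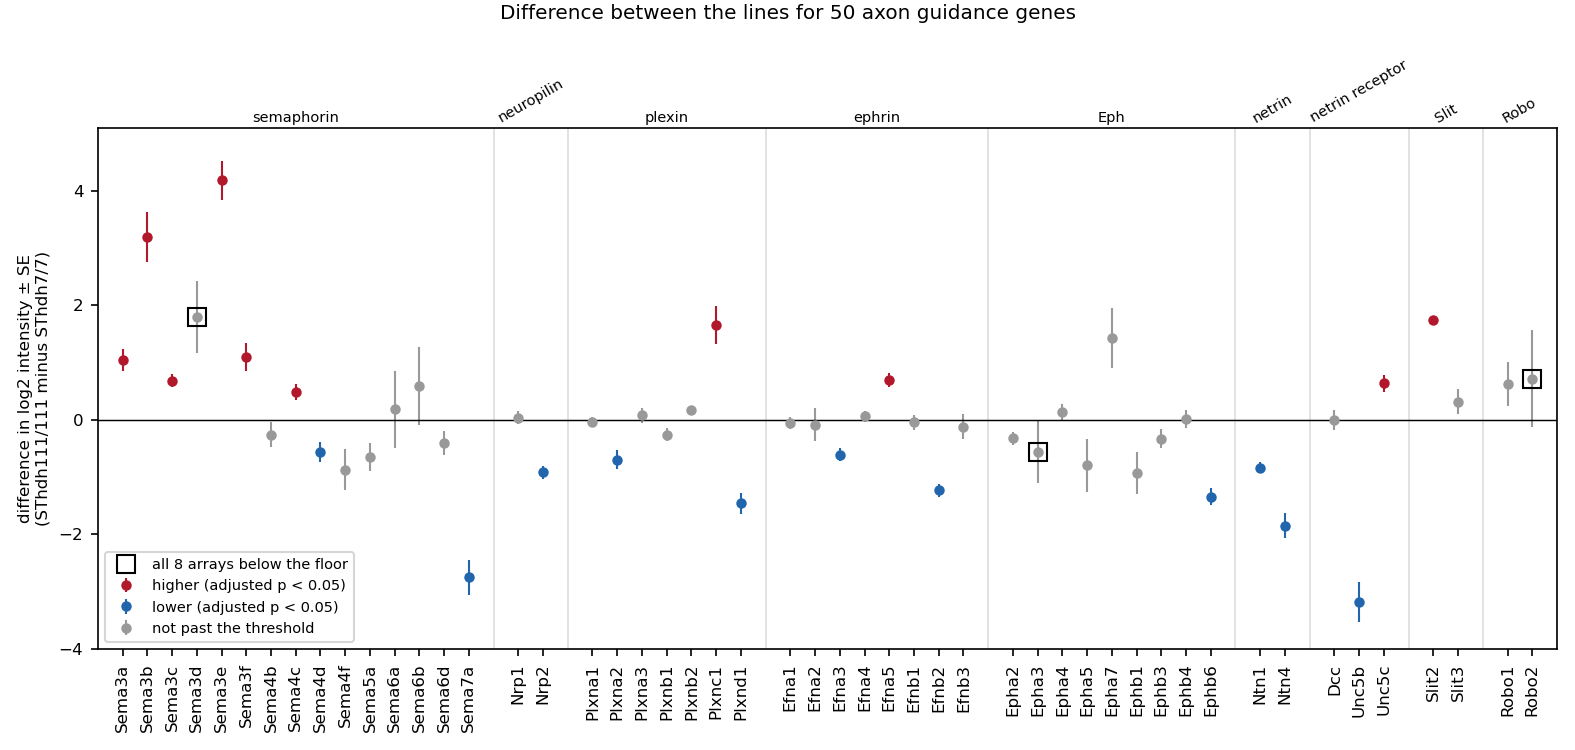
Difference in log2 intensity (y axis, SThdh111/111 minus SThdh7/7, with SE) of each of the 50 measured genes, ordered by family along the x axis. Red points rose, blue points fell, grey points did not pass the threshold and squares mark the 3 genes below the floor on all 8 arrays. The plotted class 3 semaphorins lie above 0, Ntn1 and Ntn4 lie below 0, and 5 of the 8 ephrins lie between -0.12 and 0.06.

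Markers of several cell types moved between the lines, and not in 1 direction. Of 10 mesenchymal and perivascular markers 6 rose and 2 fell, each by at least 2-fold. That is 80.0% called, beside 29.0% of all genes, and the differences ran from -4.34 to 9.41. Their summed intensity was 95180 to 110932 on the SThdh111/111 arrays and 28206 to 28930 on the SThdh7/7 arrays. Of the striatal projection neuron markers Penk and Foxp1 rose and 0 fell, with sums of 2829 to 3136 in SThdh111/111 and 1830 to 2144 in SThdh7/7. Of 8 astrocyte markers 2 rose (Slc1a3 and Gja1) and Aldh1l1 fell, with sums of 7933 to 8579 in SThdh111/111 and 6170 to 6560 in SThdh7/7. Of 9 neuron markers 0 rose and 2 fell (Map2 and Stmn2), with sums of 1827 to 2038 in SThdh111/111 and 2800 to 2907 in SThdh7/7. That is 22.2% called, beside 29.0% of all genes, and neuron marker differences ran from -1.49 to 1.46. Of the neural progenitor markers Dlx2 rose and Pax6, Sox2 and Nes fell, with sums of 46715 to 50732 in SThdh111/111 and 48741 to 54773 in SThdh7/7. Here 44.4% were called, and the differences ran from -5.02 to 1.86. Of 8 microglia and haematopoietic markers Csf1r rose and Cd68 fell, with sums of 1402 to 1643 in SThdh111/111 and 2206 to 2721 in SThdh7/7, and Aif1, Itgam and Ptprc were below the floor on all 8 arrays. Of 6 endothelial markers 2 fell, with sums of 648.0 to 737.3 in SThdh111/111 and 802.8 to 1354 in SThdh7/7, and Pecam1 was below the floor on all 8 arrays. Of 5 oligodendrocyte lineage markers Cnp fell, with sums of 1548 to 1723 in SThdh111/111 and 1711 to 2156 in SThdh7/7. All these sums include values below the floor, and the bacterial controls read higher on the SThdh7/7 arrays. Of the endothelial markers 1 was above the floor on all SThdh111/111 arrays and 3 on all SThdh7/7 arrays. The part of that background in the sums was not tested. The part of the cell type markers in the differences of the guidance genes was not tested either. In bulk RNA a smaller number of cells of one kind and less RNA per cell cannot be told apart.

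Of the 6 class 3 semaphorins among the 51 genes 5 rose (Sema3a, Sema3b, Sema3c, Sema3e and Sema3f) and 0 fell. Sema3d was below the floor on all 8 arrays. Sema3g, a class 3 semaphorin outside the 51, had a difference of -0.44 ± 0.34 (SE) and was not called. It was above the floor on 0 SThdh111/111 arrays and 2 SThdh7/7 arrays. Class 3 semaphorins are secreted repellents and attractants of growth cones and migrating cells. Sema3e, which unlike its relatives signals through plexin D1 without a neuropilin, was at 9.65, 9.62, 9.83 and 9.95 on the SThdh111/111 arrays, against 6.37, 5.59, 4.45 and 5.91 on the SThdh7/7 arrays. Every SThdh7/7 array was below the floor, so the transcript was at least 6.69-fold higher in SThdh111/111 (adjusted p = 7.0e-07). Its other 3 probe sets were called higher too, and 2 of them were also below the floor on every SThdh7/7 array, with bounds of 2.99-fold and 3.09-fold.

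Sema3b, a neuropilin ligand also known as a candidate tumour suppressor, showed the same form. It was at 8.48, 8.64, 8.34 and 8.53 on the SThdh111/111 arrays, against 4.75, 6.77, 4.74 and 4.95 on the SThdh7/7 arrays. No SThdh7/7 array exceeded the floor, and Sema3b was at least 2.78-fold higher in SThdh111/111 (adjusted p = 1.1e-04), although its other 2 probe sets, dimmer, were not called.

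Sema3a, the classical growth cone collapsing factor, was measurable in both lines. It was at 8.98, 8.72, 8.92 and 8.87 on the SThdh111/111 arrays, against 8.36, 7.52, 7.76 and 7.65 on the SThdh7/7 arrays. The lines did not overlap, and Sema3a rose by 1.05 ± 0.19 (SE; 2.07-fold, adjusted p = 0.0011), with a second probe set called the same way. Sema3f, which repels axons through Nrp2, was at 10.91, 11.00, 11.46 and 10.83 on the SThdh111/111 arrays, against 9.03, 10.17, 10.52 and 10.08 on the SThdh7/7 arrays. SThdh7/7 sample 1 was the lowest, yet all 4 SThdh111/111 arrays lay above every SThdh7/7 array. The rise was 1.10 ± 0.25 (SE, adjusted p = 0.005). This probe set can match several transcripts, and its call was lost without an intensity trend (adjusted p = 0.06) and when dim values were raised to the floor (adjusted p = 0.068), but the other 2 Sema3f probe sets rose as well, by 1.77 ± 0.11 and 1.32 ± 0.20 (SE). Sema3c, a cue for cortical axons and neural crest cells, was at 11.29, 11.70, 11.68 and 11.69 on the SThdh111/111 arrays, against 10.93, 11.08, 10.64 and 10.95 on the SThdh7/7 arrays. Its rise was smaller, 0.69 ± 0.11 (SE, adjusted p = 3.4e-04), and both of its probe sets were called.

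Several of these genes lie near each other. In the RefSeq annotation of mouse assembly GRCm38.p6, Sema3d and Sema3a are neighbours on chromosome 5 with 0 protein-coding genes between them, Sema3e follows after 3 and Sema3c after 15 more. Sema3b and Sema3f lie on chromosome 9 with 3 protein-coding genes between them. Slit2 is also on chromosome 5, but 250 protein-coding genes from Sema3c. Other near neighbours had different calls or none. Ntn4 and Plxnc1, on chromosome 10 with 8 protein-coding genes between them, were called in opposite directions (Ntn4 lower, Plxnc1 higher). Efna1, Efna3 and Efna4 are direct neighbours on chromosome 3, and of them Efna3 fell while Efna1 and Efna4 were not called, with differences of -0.05 and 0.06. Robo1 and Robo2, with 0 between them on chromosome 16, were both not called.

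**Figure D2:**
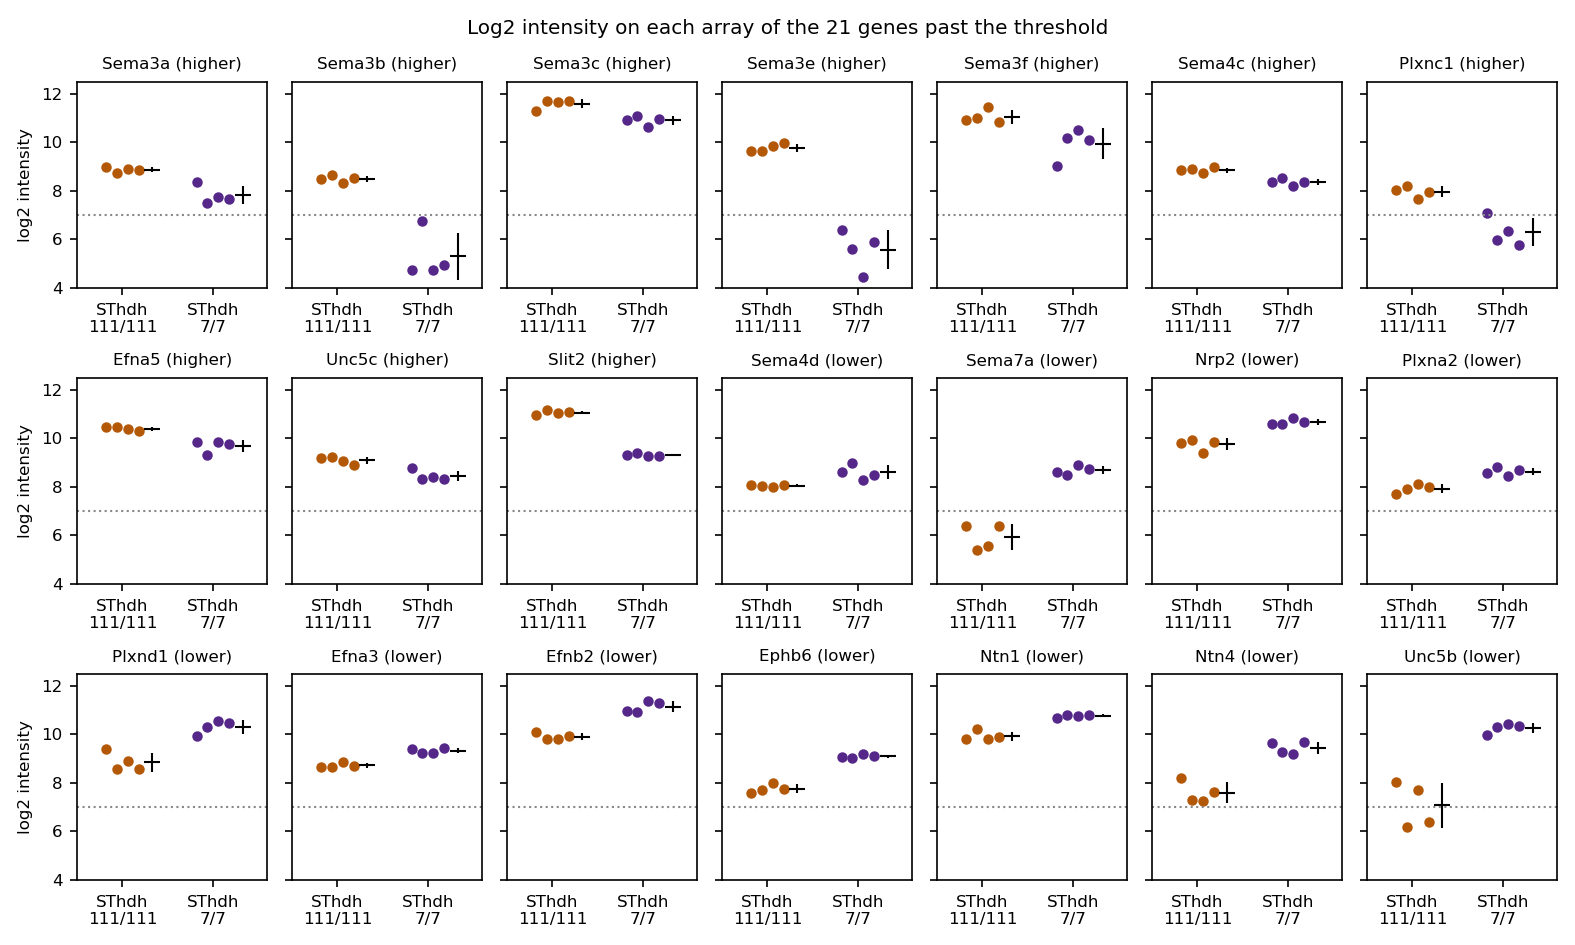
Log2 intensity (y axis) on each array of the 21 genes past the threshold, with the 4 SThdh111/111 arrays in orange left of the 4 SThdh7/7 arrays in violet. Black marks give the mean and SD of each line and the dotted line is the background floor at 7.02. The lines do not overlap for any of the 21 genes, and Sema3b and Sema3e in SThdh7/7 and Sema7a in SThdh111/111 lie wholly below the floor.

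Among the 9 semaphorins of classes 4 to 7, which are bound to the membrane or act close to it, 1 rose and 2 fell. Sema7a, anchored in the membrane by a lipid and known as a ligand of plexin C1 and of integrins, was at 6.40, 5.39, 5.56 and 6.37 on the SThdh111/111 arrays, against 8.62, 8.50, 8.88 and 8.72 on the SThdh7/7 arrays. Every SThdh111/111 array was below the floor, and Sema7a was at least 3.16-fold lower there (adjusted p = 1.2e-05), with its dimmer second probe set not called. Sema4c, a ligand of plexin B2, was at 8.84, 8.88, 8.73 and 8.98 on the SThdh111/111 arrays, against 8.36, 8.52, 8.18 and 8.38 on the SThdh7/7 arrays. It rose by 0.49 ± 0.14 (SE, adjusted p = 0.018), a call that was lost without SThdh111/111 sample 2 (adjusted p = 0.05) or sample 4 (adjusted p = 0.061). Sema4d, a ligand of plexin B1, was at 8.09, 8.05, 7.98 and 8.08 on the SThdh111/111 arrays, against 8.63, 8.98, 8.29 and 8.51 on the SThdh7/7 arrays. The difference of -0.55 ± 0.17 (SE, adjusted p = 0.035) passed the threshold, but the call was lost in 14 of 20 alternative analyses, among them leaving out SThdh7/7 samples 1 and 2 (-0.35, adjusted p = 0.22).

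The other 6 members of these classes did not pass. Sema4b and Sema6d, above the floor on all arrays, differed by -0.26 ± 0.22 and -0.41 ± 0.21 (SE), and the lines overlapped for both. For Sema4f, every SThdh111/111 array was below the floor and every SThdh7/7 array above it, so it was at least 1.09-fold lower in SThdh111/111, and it was not called (adjusted p = 0.11). Sema5a, above the floor on 2 SThdh111/111 arrays and 4 SThdh7/7 arrays, had a difference of -0.65 ± 0.24 (SE) without overlap and was not called (adjusted p = 0.073). A second Sema5a probe set did pass, with a difference of -0.79 ± 0.24 (SE). Sema6a and Sema6b were each above the floor on 1 of 8 arrays.

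Of the 2 neuropilins, which bind the secreted semaphorins, 1 fell and the other was not called. Nrp1, the neuropilin of Sema3a, was at 11.43 ± 0.18 in SThdh111/111 and at 11.39 ± 0.22 in SThdh7/7 (SD, n = 4 each), a difference of 0.04 ± 0.11 (SE), and none of its 4 probe sets was called (limma adjusted p = 0.85 at the brightest). Nrp2, the neuropilin of Sema3f, was at 9.81, 9.95, 9.39 and 9.84 on the SThdh111/111 arrays, against 10.57, 10.57, 10.82 and 10.68 on the SThdh7/7 arrays. It fell by 0.91 (log2; adjusted p = 5.0e-05), and 3 of its 4 probe sets fell. The fourth lay below the floor on every array, and with it averaged in the call was lost (-0.53, adjusted p = 0.065).

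Plexins, the large transmembrane receptors that carry the semaphorin signal to small GTPases, moved singly, with 1 of 7 higher and 2 lower. Plexin D1 (Plxnd1), the receptor of Sema3e, was at 9.38, 8.55, 8.89 and 8.58 on the SThdh111/111 arrays, against 9.91, 10.29, 10.55 and 10.46 on the SThdh7/7 arrays. It fell by 1.45 (log2; 2.74-fold lower, adjusted p = 4.6e-05). Plxnc1, the receptor of Sema7a, was at 8.02, 8.20, 7.66 and 7.95 on the SThdh111/111 arrays, against 7.09, 5.99, 6.34 and 5.78 on the SThdh7/7 arrays. Only SThdh7/7 sample 1 was above the floor in that line, and counting the other 3 at the floor gives a rise of at least 0.92 (adjusted p = 0.0022 as fitted). A further Plxnc1 probe set rose, and the other 3 kept ones were not called. Plxna2, a neuropilin partner that also binds Sema6a directly, was at 7.72, 7.91, 8.11 and 7.99 on the SThdh111/111 arrays, against 8.57, 8.80, 8.44 and 8.70 on the SThdh7/7 arrays. It fell by 0.70 (log2; adjusted p = 0.0067), and all 4 of its probe sets fell, but the call at the brightest was lost when arrays were centred on their medians (-0.54, adjusted p = 0.055).

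The remaining 4 plexins did not pass at their brightest probe sets. Plxna1, Plxna3 and Plxnb1 differed by -0.04 ± 0.08, 0.08 ± 0.13 and -0.26 ± 0.11 (SE). The dimmer Plxnb1 probe set fell by 0.78 (log2; adjusted p = 0.022). Plxnb2 was at 12.26 ± 0.07 in SThdh111/111 and 12.08 ± 0.04 in SThdh7/7 (SD, n = 4 each) and stood at the edge of the threshold without passing it (difference 0.18 ± 0.06 SE, limma adjusted p = 0.05).

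Of the 8 ephrins 1 rose and 2 fell. Ephrin-B2 (Efnb2), a transmembrane ligand that marks arteries and the partner of EphB receptors, was at 10.11, 9.79, 9.79 and 9.94 on the SThdh111/111 arrays, against 10.96, 10.91, 11.35 and 11.31 on the SThdh7/7 arrays. It fell by 1.23 (log2; 2.34-fold lower, adjusted p = 2.6e-06), and its other 3 probe sets fell by 0.92 to 1.59. Ephrin-A3 (Efna3), held in the membrane by a lipid anchor, was at 8.65, 8.67, 8.86 and 8.68 on the SThdh111/111 arrays, against 9.40, 9.25, 9.21 and 9.42 on the SThdh7/7 arrays. It fell by 0.61 (log2; adjusted p = 0.0015), and its second probe set, at -0.72 ± 0.25 (SE), was not called. Ephrin-A5 (Efna5), a repellent that sets up topographic maps, went the other way, at 10.46, 10.47, 10.36 and 10.29 on the SThdh111/111 arrays, against 9.85, 9.33, 9.84 and 9.78 on the SThdh7/7 arrays. It rose by 0.70 ± 0.12 (SE, adjusted p = 5.0e-04), with the dimmer second probe set not called. Efna1, Efna2, Efna4, Efnb1 and Efnb3 differed by -0.12 to 0.06, the lines overlapped for each, and none was called.

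Of 9 measured Eph receptors 0 rose and 1 fell. Ephb6, whose kinase domain is inactive, was at 7.57, 7.70, 8.0 and 7.74 on the SThdh111/111 arrays, against 9.05, 9.04, 9.19 and 9.09 on the SThdh7/7 arrays. It fell by 1.34 (log2; 2.53-fold lower, adjusted p = 1.5e-05) at its single probe set. Ephb4, the preferred receptor of ephrin-B2, was at 9.04 ± 0.22 in SThdh111/111 and 9.02 ± 0.28 in SThdh7/7 (SD, n = 4 each), a difference of 0.02 ± 0.16 (SE). Epha2, Ephb3 and Epha4 differed by -0.32 ± 0.12, -0.32 ± 0.16 and 0.13 ± 0.15 (SE). A dimmer Epha4 probe set, however, was called lower (-0.88 ± 0.26 SE, adjusted p = 0.026). Epha7 was above the floor on 4 SThdh111/111 arrays and on 1 SThdh7/7 array, with adjusted p = 0.069 at its brightest probe set. Without SThdh7/7 samples 1 and 2 this probe set was called higher (2.14, adjusted p = 0.021). The Epha7 probe set called higher with all arrays included lay below the floor throughout. Epha5 and Ephb1 were above the floor on 0 and 2 SThdh111/111 arrays and on 2 and 4 SThdh7/7 arrays, and neither was called (adjusted p = 0.28 and 0.1).

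Both netrins fell. Netrin-1 (Ntn1), the secreted floor plate attractant, was at 9.81, 10.20, 9.80 and 9.90 on the SThdh111/111 arrays, against 10.68, 10.79, 10.77 and 10.81 on the SThdh7/7 arrays. It fell by 0.83 (log2; 1.78-fold lower, adjusted p = 1.8e-05). Netrin-4 (Ntn4), a basement membrane netrin that binds laminins, was at 8.21, 7.31, 7.24 and 7.61 on the SThdh111/111 arrays, against 9.63, 9.27, 9.17 and 9.67 on the SThdh7/7 arrays. Its fall was 1.84 on the log2 scale (3.59-fold lower, adjusted p = 2.2e-05). All 4 probe sets of Ntn1 and Ntn4 were called lower. The second Ntn4 probe set, below the floor on every SThdh111/111 array, was at least 3.07-fold lower.

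Netrin receptors split. Unc5b, a dependence receptor of the repulsive arm, was at 8.04, 6.17, 7.71 and 6.37 on the SThdh111/111 arrays, against 9.95, 10.28, 10.43 and 10.34 on the SThdh7/7 arrays. Samples 1 and 3 of SThdh111/111 were above the floor and samples 2 and 4 below it, and counting these at the floor gives a difference of -2.80 (adjusted p = 1.2e-05 as fitted). Its second probe set fell as well. Unc5c, a paralogue with the same repulsive role, was at 9.17, 9.25, 9.06 and 8.90 on the SThdh111/111 arrays, against 8.76, 8.34, 8.41 and 8.31 on the SThdh7/7 arrays. It rose by 0.64 ± 0.14 (SE, adjusted p = 0.005), and both of its probe sets were called. Dcc, the attractive netrin receptor, was at 8.19 ± 0.14 in SThdh111/111 and 8.19 ± 0.23 in SThdh7/7 (SD, n = 4 each), a difference of 0.00 ± 0.18 (SE).

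Slit2, a secreted repellent of midline and forebrain axons, was the guidance gene with the lowest adjusted p. It was at 10.97, 11.14, 11.03 and 11.07 on the SThdh111/111 arrays, against 9.32, 9.38, 9.26 and 9.28 on the SThdh7/7 arrays. The spread within each line, an SD of 0.07 in SThdh111/111 and 0.05 in SThdh7/7 (n = 4 each), was small beside the rise of 1.74 ± 0.08 (SE; 3.35-fold, limma adjusted p = 1.5e-09). Its other 2 probe sets lay below the floor on all 8 arrays, and 1 of them was called higher. Slit3 differed by 0.32 ± 0.22 (SE) and overlapped between the lines. Of the receptors, Robo1 was above the floor on 4 SThdh111/111 arrays and 3 SThdh7/7 arrays and was not called (0.63 ± 0.39 SE, adjusted p = 0.31), and Robo2 had no level above the floor.

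Ligands were set beside 24 pairings with receptors known to bind them, with members recurring across pairings. The pairings were drawn up with the results known and mostly around called ligands: the ligand was called in 23 of the 24, while 14 of all 27 ligands were called. Both partners were called in 7 pairings, and in 6 of them the directions were opposite. Sema3e rose while Plxnd1 fell, Sema7a fell while Plxnc1 rose, and Ntn1 fell while Unc5c rose. Sema3b, Sema3c and Sema3f rose while their shared receptor Nrp2 fell, so these 3 pairings rest on 1 receptor. Ntn1 and Unc5b were the pairing in which both fell. In 16 others the ligand was called and the receptor was not, as for Sema3a with Nrp1, Slit2 with Robo1, and Efnb2 with Ephb4. These are descriptions of transcript differences between the lines, and their number was not tested. The pairings are not complete. Efnb2 and the EphB receptor Ephb6 both fell but were not paired, and Ntn4 and Efna3, which fell, were in no pairing. The count of opposite directions therefore depends on which pairings were listed.

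**Figure D3:**
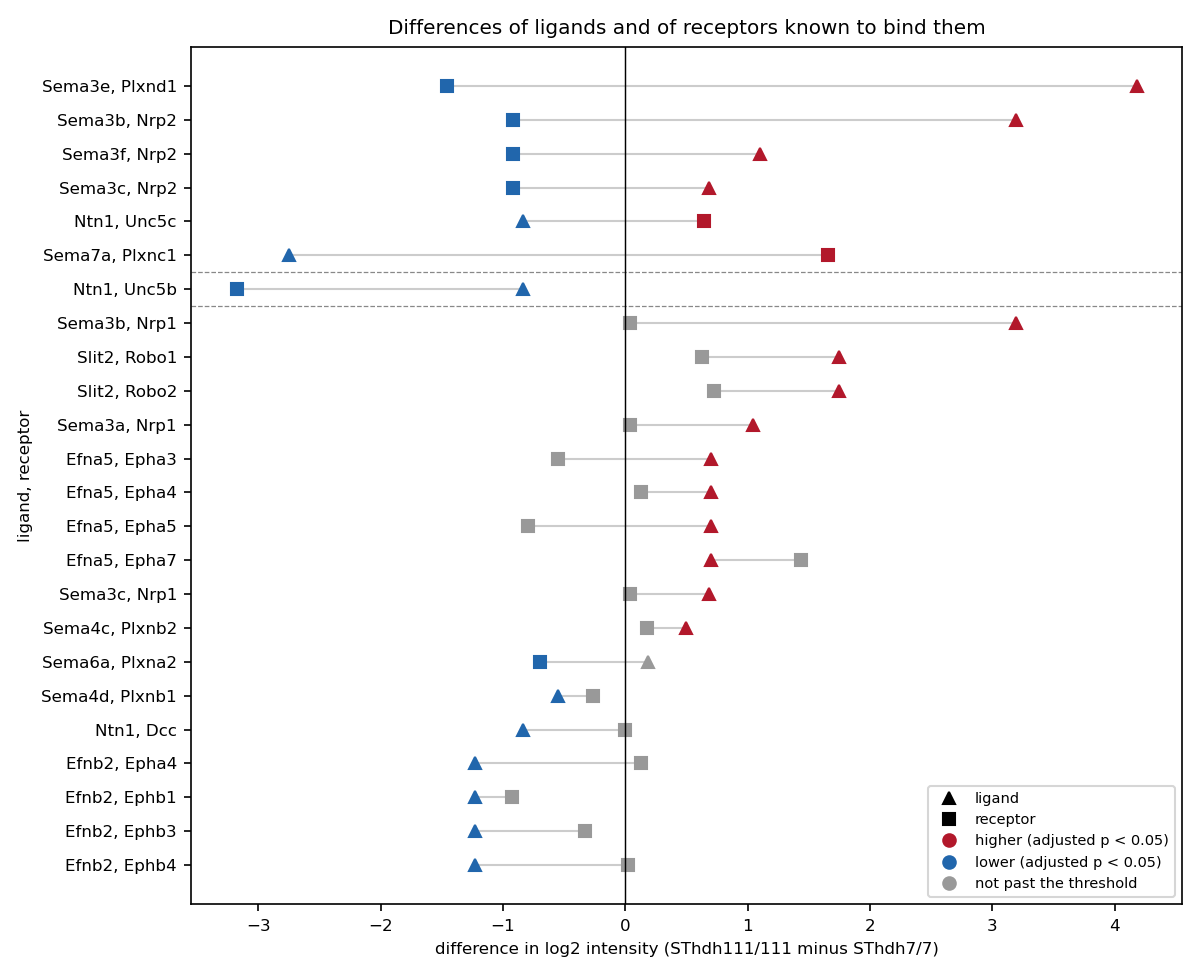
Difference in log2 intensity (x axis, SThdh111/111 minus SThdh7/7) of ligands (triangles) and of receptors known to bind them (squares) for 24 pairings, listed down the y axis. Red symbols rose, blue fell and grey did not pass the threshold; the 6 pairings above the upper dashed line have both partners called in opposite directions, and fitted differences of Sema3b, Sema3e, Sema7a, Plxnc1 and Unc5b include values below the floor.

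Agreement between probe sets of a gene bears on how far these calls can be read. Of the 115 kept probe sets 21 were called higher and 25 lower, 40.0% in all. Of the kept probe sets of the whole array 9.87% were higher and 12.6% lower, 22.4% in all. These shares are not matched for brightness, and bright genes were called more often. Of all genes 29.0% were called, and of those above the floor on all 8 arrays 41.9%. The guidance genes were chosen with earlier results of these data known. No gene had probe sets called in opposite directions. Of the 18 called genes with more than 1 kept probe set, 13 had another one called the same way, and for the other 5 (Sema3b, Sema4d, Sema7a, Efna3 and Efna5) the remaining ones were not called. Sema5a, Plxnb1, Epha4 and Epha7 were called at a dimmer probe set alone.

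**Figure D4:**
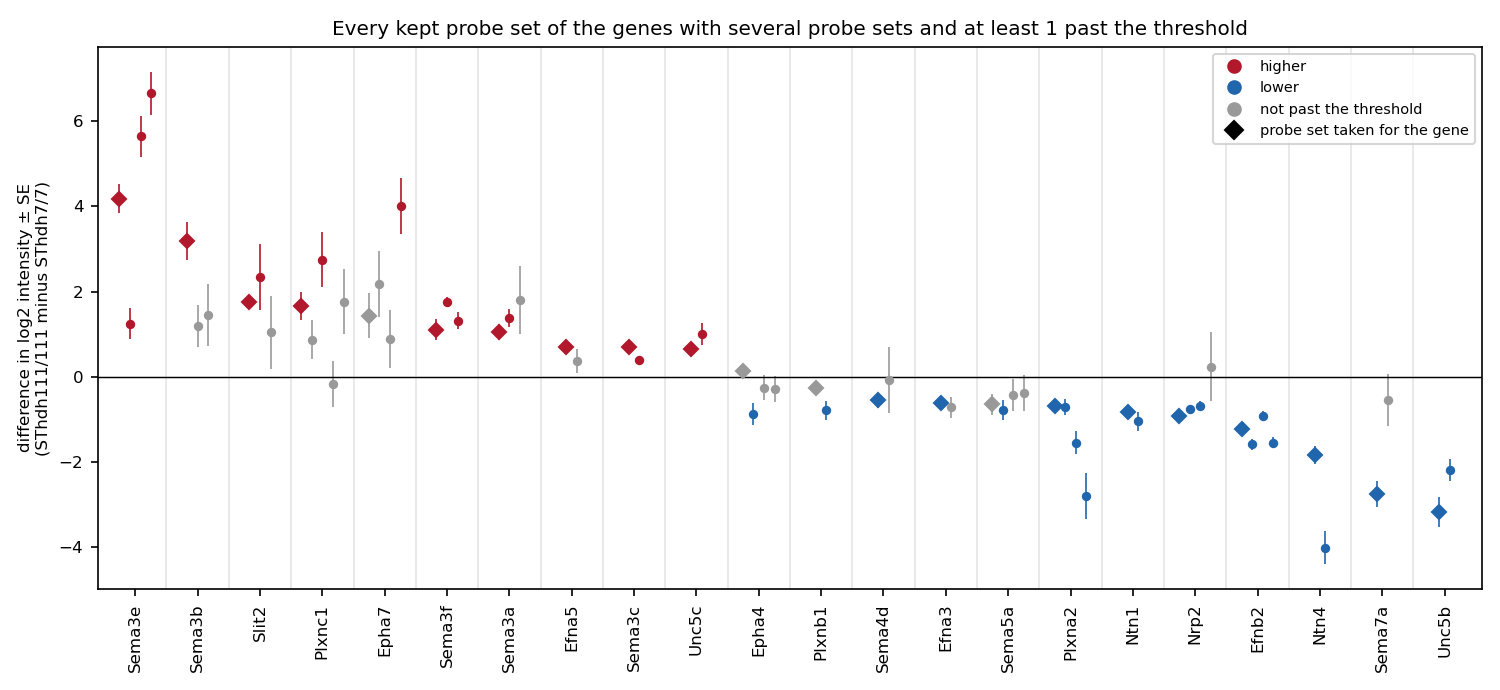
Difference in log2 intensity (y axis, SThdh111/111 minus SThdh7/7, with SE) of every kept probe set of the 22 genes that have more than 1 and at least 1 called. Diamonds mark the probe set taken for the gene, red and blue points are called higher and lower, and no gene has points of both colours.

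The 250 bases upstream of the annotated start are shown for 2 genes that rose, Slit2 and Sema3e, and 2 that fell, Efnb2 and Unc5b. These genes are examples and do not follow the size of the difference: Ntn4, at -1.84, fell more than Efnb2, at -1.23. The sequences come from RefSeq on build GRCm38.p6, whose promoter table held 44 of the 51 genes, and read 5′ to 3′ on the gene's strand. Capitals mark GC boxes (GGGCGG, or CCGCCC on the other strand) and TATA boxes (TATAAA, or TTTATA on the other strand), and E-boxes (CACGTG) were searched as well.
Slit2, chr5:47982905-47983154, strand +: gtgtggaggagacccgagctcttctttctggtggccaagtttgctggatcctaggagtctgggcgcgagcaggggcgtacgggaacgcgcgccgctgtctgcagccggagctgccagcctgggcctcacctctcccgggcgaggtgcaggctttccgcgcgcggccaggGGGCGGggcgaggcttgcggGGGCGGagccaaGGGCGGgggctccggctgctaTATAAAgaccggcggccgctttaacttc
Sema3e, chr5:14025026-14025275, strand +: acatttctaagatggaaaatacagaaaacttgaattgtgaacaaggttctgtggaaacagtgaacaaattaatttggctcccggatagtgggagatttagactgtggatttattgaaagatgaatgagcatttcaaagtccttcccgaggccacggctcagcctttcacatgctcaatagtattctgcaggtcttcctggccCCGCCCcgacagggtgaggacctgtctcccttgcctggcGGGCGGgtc
Efnb2, chr8:8661243-8661492, strand -: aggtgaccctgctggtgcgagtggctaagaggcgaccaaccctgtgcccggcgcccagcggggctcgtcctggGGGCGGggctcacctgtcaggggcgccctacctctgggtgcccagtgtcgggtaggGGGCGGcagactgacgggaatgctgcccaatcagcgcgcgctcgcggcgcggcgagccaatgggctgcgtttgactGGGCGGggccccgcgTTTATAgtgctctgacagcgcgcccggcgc
Unc5b, chr10:60831582-60831831, strand -: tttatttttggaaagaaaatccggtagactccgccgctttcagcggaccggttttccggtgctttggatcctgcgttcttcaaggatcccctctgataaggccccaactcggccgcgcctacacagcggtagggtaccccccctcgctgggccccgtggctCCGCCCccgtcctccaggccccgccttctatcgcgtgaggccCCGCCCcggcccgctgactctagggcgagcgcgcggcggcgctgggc
GC boxes numbered 3, 2, 3 and 2 in that order, TATA boxes 1, 0, 1 and 0, and no E-box was found in any of the 4 windows. The Sema3e window stood apart in composition, with 48.0% G and C and 7 CpG dinucleotides, against 69.6% and 25 for Slit2, 72.0% and 27 for Efnb2, and 66.8% and 27 for Unc5b. Any relation of composition or motifs to the direction of the differences was not tested. A GC box was present in 7 of 9 promoters of genes that rose (77.8%), in 11 of 13 of genes that fell (84.6%) and in 22 of 33 of those not called (66.7%), and in 32.7% of all 32851 promoters in the table. Base composition differed in the same direction, with a median of 64.8% G and C in the promoters of the guidance genes and 52.4% in all promoters, and its part in the GC box shares was not tested. A match describes the letters and does not show that a factor binds there.

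The wider pathway was described with 2 further lists. Of 28 other genes of guidance families 3 rose and 3 fell, 10.7% each way, beside 13.1% and 15.9% of all genes. Their median difference was -0.38, beside -0.09 for all genes. Flrt2, a leucine-rich transmembrane protein that repels through Unc5 receptors, was at 7.36 ± 0.37 in SThdh111/111 and 10.66 ± 0.13 in SThdh7/7 (SD, n = 4 each) and fell by 3.29 (log2; limma adjusted p = 6.3e-09). Its relatives Flrt1 and Flrt3 rose, Flrt1 by 1.23 ± 0.20 (SE), and Flrt3 was above the floor on 4 SThdh111/111 arrays and 2 SThdh7/7 arrays. Robo3, a divergent Robo receptor of commissural axons, was lower (difference -1.83 ± 0.21 SE). SThdh111/111 sample 2 was below the floor for Robo3, and counting it at the floor gives a difference of -1.77. The repulsive guidance molecule Rgma was lower too (-0.71 ± 0.13 SE), while Neo1, the netrin and Rgma receptor related to Dcc, rose by 0.38 ± 0.09 (SE).

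Of 56 measured intracellular effectors and co-receptors 9 rose and 19 fell, 16.1% and 33.9%, beside 13.1% and 15.9% of all genes. Their median difference was -0.20 beside -0.09. All 8 arrays were above the floor for 41 of the 56, and of all genes that bright 19.0% rose and 22.9% fell. Rgs3, a regulator of G protein signalling that binds ephrin-B tails, rose by 1.81 ± 0.08 (SE, adjusted p = 2.2e-09). Srgap3, a GTPase activator of the Slit and Robo pathway, rose by 1.28 ± 0.11 (SE), and the adhesion molecule L1cam, a partner of Nrp1, by 1.48 ± 0.15 (SE). Dpysl3, a collapsin response mediator, was at 7.52 ± 0.56 in SThdh111/111 and 11.99 ± 0.08 in SThdh7/7 (SD, n = 4 each) and fell (limma adjusted p = 2.2e-09). SThdh111/111 sample 1 was below the floor for Dpysl3, and counting it at the floor gives a difference of -4.40. Limk2, a kinase that inactivates cofilin, had a difference of -1.10 ± 0.07 (SE) and fell, and the Rac activator Tiam1, below the floor on every SThdh111/111 array, was at least 4.55-fold lower.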

How the data were processed

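The authors deposited 1 linear intensity per probe set and array. GCRMA is the only tool named, per the submitters' processing notes, but the mean with 2% trimmed from each end was 500.0 on every array, as Affymetrix's MAS5 or GCOS scaling leaves it. Which tool made the deposited intensity values is therefore not settled, and dim probe sets are noisy under such scaling.

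Here log2 was taken. The 64 control probe sets were left out, and 41409 probe sets at a log2 of at least 4 on at least 4 of 8 arrays were kept. Genes came from the platform annotation, updated by Entrez number to GRCm38.p6; 34945 probe sets had 1 gene, 932 several and 9160 none. All 4 SThdh111/111 and 4 SThdh7/7 arrays, grouped by sample title, entered 1 fit. The tests were two-sided, from limma 3.58.1 under R 4.3.3 (lmFit, then eBayes with trend), and Benjamini-Hochberg adjustment ran over every kept probe set. The number of arrays limits the precision. For the floor, the 95th percentile over 27 bacterial controls was taken on each array and the highest of the 8 used (intensity 130.0). Values on all arrays are given for called genes whose brighter line averaged above the floor, at most 12 in each direction, and each further list is represented, per direction, by its 3 called genes of lowest adjusted p. The members, lists, pairings and floor were chosen with earlier results of these data known. Alternatives are described at the end. Figures were drawn with matplotlib 3.10.9.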

Additional observations from a re-analysis of the deposited data

Results flagged for a closer look

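In 8 of the 100 groups of 4 arrays (50 genes in 2 lines), 1 array lay far from the other 3, where chance gives about 1 in 20. Among genes that rose, Sema3c was at 11.29 on SThdh111/111 sample 1, with the next array at 11.68, Sema3b was at 6.77 on SThdh7/7 sample 2, below the floor, with the next at 4.95, and Efna5 was at 9.33 on SThdh7/7 sample 2, with the next at 9.78. Efna3, which fell, was at 8.86 on SThdh111/111 sample 3, with the next at 8.68. These 4 genes kept their calls without the array in question. Of genes not called, Epha2 was at 9.74 on SThdh111/111 sample 3, with the next at 10.15, Nrp1 was at 11.72 on SThdh7/7 sample 4, with the next at 11.31, and Dcc was at 7.85 on SThdh7/7 sample 3, with the next at 8.27. Sema6a, at 4.26 on SThdh111/111 sample 4 with the next at 6.60, was below the floor there.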

How the results depend on the processing

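Over 20 alternative analyses, the counts of guidance genes stayed between 9 and 13 higher and between 9 and 12 lower, and 16 of the 21 called genes kept their calls in all analyses in which they could be tested; Nrp2, Plxna2, Sema3f, Sema4c and Sema4d did not, as given above, and none changed sign. Centring arrays on their medians gave a median difference of 0.04 over all kept probe sets (-0.12 as deposited) and of 0.11 over the guidance genes (-0.04 as deposited), with 12 higher and 9 lower, a shift that the centring itself makes. Leaving out probe sets that can match several transcripts left 32876 probe sets, of which 6132 were called instead of 9288. Without 1 array, 9 to 12 guidance genes were higher and 10 to 12 lower. Without SThdh7/7 samples 1 and 2 the counts were 11 and 10. With the sample number as a replicate block they were 10 and 10, with Sema4d lost (adjusted p = 0.056). Same-numbered samples did not deviate together (correlations of -0.01 to 0.01 over all kept probe sets). Such correlations show no pairing by number but cannot exclude one that moved few probe sets. Setting values below the floor to it, added after seeing the data, gave 11 and 11. Of genes not called, 8 gained a call in at least 1 alternative: Epha7, Plxnb2, Sema3d (below the floor throughout), Sema5a, Plxnb1, Epha2, Sema4f and Ephb1. Leaving out 1 array was enough for Ephb1 and Plxnb2 (SThdh111/111 sample 3; adjusted p = 0.031 and 0.042), Epha7 and Plxnb2 (SThdh7/7 sample 2; 0.034 and 0.046), Sema3d (SThdh7/7 sample 1 or 3; 0.04 and 0.041), Plxnb1 (SThdh7/7 sample 3; 0.04) and Epha2 (SThdh7/7 sample 4; 0.044). Signal over background limits dim transcripts, and 3 of the 50 genes were below the floor throughout.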
